A study of Drosophila melanogaster with 36 samples.

Results

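Reselected pair B of a Drosophila melanogaster wing-shape selection experiment consists of the high line B1 and the low line B2, with 3 arrays of wing disc RNA each. These are 6 of the 36 arrays of the series, picked by the line named in each sample title. Line B1 is the high line and B2 the low line made from hybrid population B, and the reselected lines A1, C1 and D1 (high) and A2, C2 and D2 (low) come from hybrid populations A, C and D. All 8 descend from the founder high line H and the founder low line L, which 20 generations of divergent selection produced from wild Massachusetts flies before both were made isogenic. H and L were then crossed, the hybrids were mixed for 34 generations, divergent selection was applied again for 25 generations, and each line was inbred for 10. A further pair of lines, from California, entered only the filter on mean signal and the estimate of the spread between arrays. Which measure of wing shape was high or low is not given in the sources used here. All flies were kept at 20 °C, and discs were taken from larvae of the third instar at a median of 6.2 hours before pupariation, 100 discs to a tube. Each line is 1 inbred line, so a difference between B1 and B2 is one between that pair of inbred stocks. Nothing in the labels tells whether the 3 samples within a line were reared apart, and the p-values therefore reflect only the spread among these samples, which may be technical.

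The wing disc is a single-layered larval epithelium that becomes the wing blade, the hinge and the notum, the dorsal body wall of the thorax. Late in the third instar it is patterned by Hedgehog, Dpp, Wingless, Notch and EGFR signalling, grows under insulin and Hippo control, and receives a rising dose of the moulting hormone ecdysone that starts pupariation. The discs were a bulk tissue, in which fewer cells of a type and less RNA per cell cannot be told apart.

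Signals are the deposited linear intensities of the array, scaled by their makers to the same trimmed mean on every array, and differences are given as high line minus low line on the log2 scale. Array medians of pair B lay between 274.1 and 317.6, inside the 243.2 to 433.5 of all 36 arrays. Arrays of B1 correlated at 0.9762 to 0.9833 with each other, those of B2 at 0.9795 to 0.9816, and B1 with B2 at 0.9613 to 0.9698. The 9 wing disc markers measured summed to between 83820 and 90040 on B1 arrays and between 80180 and 96300 on B2 arrays. The 10 hemocyte markers, genes of the larval blood cells, summed to between 4390 and 7798 on B1 arrays and between 8421 and 9260 on B2 arrays, so these sums did not overlap. Of these 10, crq and eater were called lower in B1 and lz was under the filter level on all 6 arrays, and the part of blood cells in the results below was not tested. In the title numbers B1 precedes B2 as every high line precedes its low line, so order and direction of selection cannot be told apart within pair B.

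A probe set was called when its Benjamini-Hochberg adjusted p, from a limma fit over all 36 arrays, was below 0.05. Between B1 and B2, 1189 of 9385 tested probe sets were called (12.7%), of which 591 were higher (6.3%) and 598 lower (6.37%) in B1. The median size of a called difference was 0.53, and 257 were at least 2-fold, 109 of them higher and 148 lower in B1. Pairs A, C and D had 15.7%, 14.2% and 10% called. Of the 1189, 188 were called with the same sign in all of A, C and D, 249 in 2 of them, 307 in 1 and 445 in none. A call missing from the other pairs does not show that the pairs differ, so the difference between pairs was tested itself. The B difference minus the mean difference of A, C and D was called for 406 probe sets (4.33%), with 177 above (1.89%) and 229 below 0 (2.44%). Only 119 of the 376 probe sets called in B and in no other pair in either direction were among them.

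Pair B was then set against each other pair. Pair B differed from A at 366 probe sets (3.9%), from C at 690 (7.35%) and from D at 261 (2.78%). For 56 probe sets (0.597%) the B difference was called and exceeded, in its own direction, that of each of A, C and D by a called amount. They are named here the pair B probe sets, and 18 were higher (0.192%) and 38 lower (0.405%) in B1. The same rule gave 46 probe sets for pair A (0.49%), 73 for C (0.778%) and 24 for D (0.256%). Of the 56, 36 carry 1 gene symbol, 4 carry several and 16 none, and only those with 1 are named as genes. The arrays of B1 and B2 did not overlap for 55 of the 56. They did not overlap for 1099 of the 1189 probe sets called in B1 minus B2, a call that the rule requires, and for 24.6% of all tested. Their B differences ranged in size between 0.31 and 4.09, with a median of 0.93. The number rested partly on single arrays, with 36 probe sets without B1 replicate 2 and 92 without B1 replicate 3, and the 406 became 262 and 684 in the same way. Of the 36 genes, 17 met the rule with each pair B array left out in turn, and 10 of these also with both other scalings tried, which are CG5953, CG31673, Cyp4e2, CG7997, CG1620, fok, eyg, CG7739, Ctps and CG1637. Those scalings were centring of each array on its median and quantile normalisation, and 14 of the 36 genes met the rule under both. CG1620 and CG1637 were picked out after their values were seen, as were Wwox, Cox11, Cep97, CG17508, CG12237, TH1 and e(y)3 below.

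In most pair B genes B1, and not B2, was called apart from the other lines selected the same way. Against the mean of A1, C1 and D1, B1 was called at 646 tested probe sets (6.88%), 283 of them higher (3.02%) and 363 lower (3.87%), and against the mean of A2, C2 and D2, B2 was called at 579 (6.17%), 316 higher (3.37%) and 263 lower (2.8%). Centring each array on its median turned these splits to 103 higher and 277 lower for B1 and to 109 higher and 151 lower for B2. Among the 36 genes, B1 alone was called apart for 20 (15 lower and 5 higher in B1 than in B2), B2 alone for 5, and both lines, in opposite directions, for 11. Since these contrasts use the same arrays as the rule, the split is a description of it. A line that was not called may still differ. B2 was 0.41 above the other low lines in sowah and in CG7997 (adjusted p = 0.103 and 0.111). In CG2124, B1 was at -0.43 against the other high lines (adjusted p = 0.11).

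CG5953 was less bright in B1 than in any other Massachusetts line. It read 8537, 7531 and 19280 on B1 arrays, against 72770, 64600 and 67570 on B2 arrays. The third B1 array was the highest of its line and still below every B2 array. B1 minus B2 was -2.67 ± 0.18 (SE; adjusted p = 1.92e-12), and the A, C and D differences were 0.05, -0.11 and 0.00. The reselected lines of the other pairs averaged between 61020 and 67270, founder H 98430 and founder L 68100, so B1 was the lowest of these 10 lines. Its mean of 11780 was still far above the filter signal of 259.72. A second and far dimmer probe set of the gene gave -0.62 and was not called (adjusted p = 0.145), with B1 and B2 arrays overlapping. Without B1 replicate 2 or 3 that second value passed, at -0.90 (adjusted p = 0.0424) and -0.85 (adjusted p = 0.0469). Whether the RNA differs or the DNA under the probes of 1 probe set cannot be told apart from these signals, for this gene as for the others.

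CG31673 read 385.5, 351.1 and 268.6 on B1 arrays, against 2126, 2401 and 2087 on B2 arrays. The groups were separated by a wide gap, and the other lines of the Massachusetts stock averaged between 1954 and 2988. The difference was -2.73 ± 0.20 (adjusted p = 1.19e-11), beside -0.13, -0.36 and -0.59 in A, C and D, none of which was called. Cyp4e2, a cytochrome P450 monooxygenase, gave 3539, 3527 and 3290 in B1 and 8103, 7405 and 9381 in B2. All B1 arrays were below all B2 arrays, and the other lines averaged between 7416 and 9808. Its difference was -1.26 ± 0.13 (adjusted p = 6.38e-09), against -0.15, 0.36 and 0.20 in A, C and D.

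GstE1, an epsilon-class glutathione transferase that conjugates glutathione to electrophiles, had 327.8, 313.5 and 132.6 in B1 and 1760, 2374 and 4041 in B2. The difference of -3.42 ± 0.42 (adjusted p = 3.71e-07) was the lowest of the 36 genes, but C1 was also low at 453.8 against 1664 in C2, a called difference of -1.53 in pair C. GstE1 met the rule in 2 of the 6 fits that left out a pair B array, and did not meet it with quantile normalisation. CG7997, a predicted alpha-galactosidase, was dim, with 213.7, 272.4 and 247.1 in B1 and 493.3, 508.7 and 643.4 in B2. B1 fell by 1.16 against B2, whereas the A, C and D differences were 0.43, 0.58 and 0.23. CG1620 averaged 6295 in B1 and 12650 in B2 (difference -1.01), with differences of -0.16, 0.03 and -0.01 in the other pairs. Sowah, which encodes an ankyrin-repeat protein, showed 462.7, 391.4 and 437.4 in B1 and 1532, 1518 and 1414 in B2, without overlap. Its second and brighter probe set showed no such gap (difference 0.05, adjusted p = 0.82), pair C also had a called difference of -0.96, and the first probe set kept to the rule in 1 of those 6 fits.

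**Figure D1:**
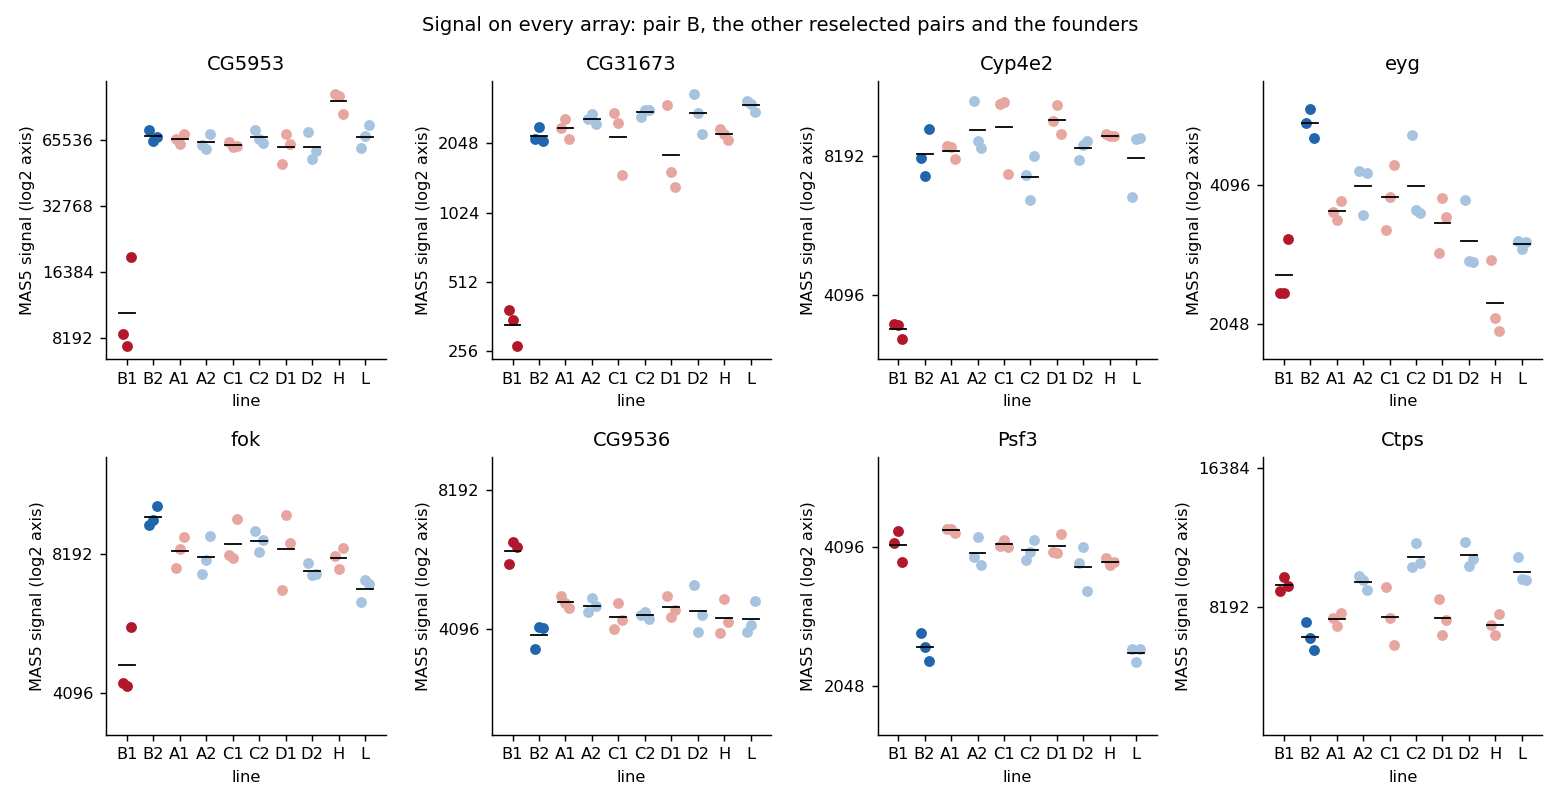
Deposited signal (log2 axis) of 8 genes on each array of the 10 Massachusetts lines, with a line at each mean of log2 signals, B1 in dark red, B2 in dark blue, other high lines in light red and other low lines in light blue. B1 is far below all other lines for CG5953, CG31673 and Cyp4e2, B2 is level with founder L for Psf3, in eyg B1 is below and B2 above the other reselected lines, and in Ctps B1 is above B2 while the other high lines are below their low lines.

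Further genes were low in B1. The gene fok, in which B2 was also called above the other low lines, read 4315, 4248 and 5690 in B1, against 9470, 9692 and 10420 in B2, a difference of -1.07 ± 0.11 (adjusted p = 5.76e-09). B1 was below both founders and B2 above both. Rchy1, a RING-finger ubiquitin ligase gene, read 918.2, 1241 and 902.2 in B1 and 2143, 2554 and 1767 in B2, with a difference of -1.08. CG2201 had a difference of -0.84, and each of these last 2 genes met the rule in 2 of the 6 fits without a pair B array. Profilin, the actin-monomer-binding protein encoded by chic, had its RNA at 37850, 34520 and 40890 in B1 and at 60110, 58060 and 51740 in B2. The difference in chic was -0.59 ± 0.08 (adjusted p = 4.84e-06), beside -0.05, 0.23 and 0.17 in A, C and D. With arrays centred on their medians, chic did not meet the rule. Wwox, a WW-domain oxidoreductase, had -0.86, Cox11, a factor for the assembly of cytochrome c oxidase, -0.89, the centriole gene Cep97 -0.62, CG17508 -1.44 and CG12237 -0.54. Of these, Cox11 met the rule in 1 of the 6 fits, CG12237 in 3, Wwox in 4, CG17508 in 5 and Cep97 in 6. With arrays centred only CG17508 among them met it, and with quantile normalisation Cox11 and Wwox did not. The CG17508 differences in A, C and D were also negative, at -0.27, -0.61 and -0.62. Those of CG12237 were 0.58, -0.12 and -0.02.

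In 5 genes B1 alone was called apart and was raised. CG9536 read 5674, 6325 and 6181 in B1, against 3709, 4142 and 4121 in B2 (difference 0.60 ± 0.08, adjusted p = 1.46e-06). The A, C and D differences of CG9536 were 0.03, -0.01 and 0.02, and B1 lay above every other line. CG5676 gave 15220, 14650 and 13230 in B1 and 10340, 9687 and 8869 in B2, a difference of 0.58, and B1 was near founder H (15220) while the other reselected lines averaged between 9362 and 10070, near founder L (10200). CG10730 gave 754.7, 657.0 and 717.3 in B1 and 424.1, 307.8 and 348.2 in B2, a difference of 0.99, with -0.83 called in pair A. With arrays centred on their medians, CG9536, CG5676 and CG10730 did not meet the rule.

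The other two encode known regulators. CoRest, a corepressor that works with a histone demethylase, read 13340, 13710 and 11330 in B1 and 9294, 9549 and 8840 in B2 on the probe set that met the rule (difference 0.47). Its other probe sets disagreed, at -0.51 (adjusted p = 5.49e-04) and 0.07 (adjusted p = 0.954), so no direction can be given for the gene. Fuzzy (fy), a planar polarity effector that positions wing hairs, read 6022, 6966 and 6732 in B1 and 5404, 5032 and 4856 in B2. The fy difference was 0.37 ± 0.06 (adjusted p = 2.17e-05), against -0.02, 0.10 and 0.03 in A, C and D. With each array centred on its median, pair B minus the mean of the others was no longer called for fy (0.32, adjusted p = 0.189), and fy met the rule in 2 of the 6 fits without a pair B array.

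In 5 genes B2 alone was called apart. CG12268, a predicted fatty acyl-CoA reductase, read 2624, 2766 and 2329 in B1 and 1060, 1460 and 1103 in B2, with no overlap. The other low lines averaged 2473, 2598 and 2505, and founder H, at 1357, was nearest to B2. Psf3, a subunit of the GINS complex of the replicative helicase, had 4186, 4439 and 3797 in B1 and 2666, 2488 and 2319 in B2 (difference 0.73 ± 0.08, adjusted p = 6.09e-08). Here B2 was level with founder L (2413), and the other 7 reselected lines averaged between 3727 and 4452, like founder H (3806). CG11699 behaved alike in the other direction, with 7784, 7027 and 7422 in B1, 13530, 13160 and 11820 in B2, and 14100 in founder L (difference -0.79), though pair D also had a called difference of -0.35. CG2124 (-1.03) and CG1637 (-0.82) were also high in B2. CG12268 met the rule in 2 of the 6 fits without a pair B array, CG11699 in 3 and CG2124 in 5, while Psf3 and CG1637 met it in all 6. With arrays centred, CG2124 and CG1637 met it, and CG12268, CG11699 and Psf3 did not.

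**Figure D2:**
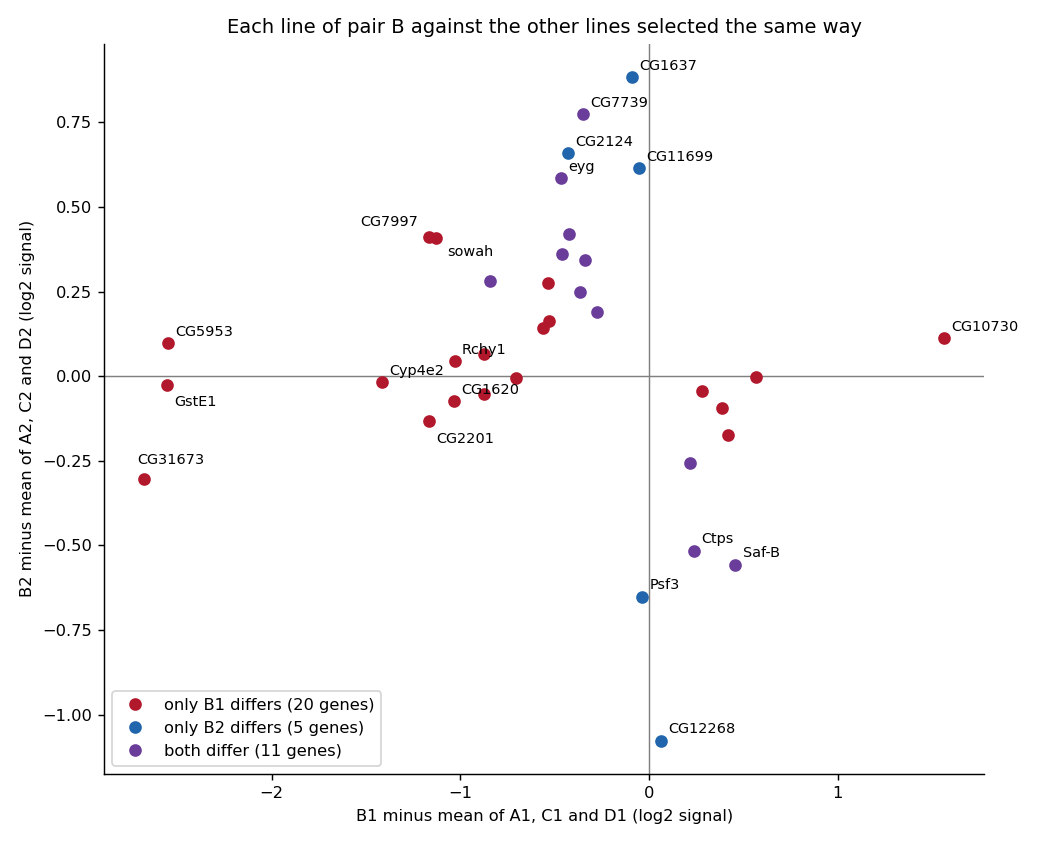
Mean log2 signal of B1 minus the mean of A1, C1 and D1 (horizontal) against that of B2 minus the mean of A2, C2 and D2 (vertical), one point for each of the 36 pair B genes, coloured by which of these differences was called. CG5953, GstE1 and CG31673 lie far to the left with B2 near 0, and CG12268 lies far down with B1 near 0.

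In the remaining genes both lines were called apart. Eyegone (eyg), a Pax-family transcription factor needed for notum and eye development, read 2387, 2390 and 3123 in B1, against 5584, 5969 and 5174 in B2. The lines did not overlap, and B2 was above both founders (2298 in H, 3050 in L). The eyg difference was -1.09 ± 0.15 (adjusted p = 2.11e-06), and those of A, C and D were -0.18, -0.08 and 0.13. Idh3a, the catalytic subunit of mitochondrial isocitrate dehydrogenase, fell by 0.43 in B1, and TTLL4A, a tubulin-modifying ligase, by 0.51. Srp72 of the signal recognition particle rose by 0.31, a call that was lost when arrays were centred on their medians (0.30, adjusted p = 0.13). TH1 of the negative elongation factor complex (-0.74) and the chromatin coactivator e(y)3 (-0.63) were lower in B1.

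Some differences ran against the other pairs. Of the 1189 called probe sets, 104 were called with the opposite sign in at least 1 other pair and 14 in at least 2. Ctps, the CTP synthase gene, read 8856, 9491 and 9085 in B1 and 7592, 7016 and 6614 in B2 on the probe set that met the rule, a rise of 0.37 ± 0.08 (adjusted p = 0.00136). In pairs A, C and D the same probe set fell by 0.26, 0.43 and 0.45, all called, and founders H and L differed by -0.38. The other Ctps probe sets gave 0.26 and -0.25 in pair B and were not called. CG7739 read 8859, 9231 and 9599 in B1 and 13630, 13120 and 13350 in B2 (difference -0.53 ± 0.09), whereas pairs A and C had 0.83 and 0.80 and founders 0.76. Saf-B, a nuclear RNA-binding protein gene, rose by 0.53 in B1, against called differences of -0.53 in C and -0.79 in D, but its arrays overlapped (13480, 14870 and 12850 in B1, 7080, 13710 and 8835 in B2) and the call was lost without B2 replicate 1 (0.32, adjusted p = 0.0525). The oxidoreductase gene Pyroxd1 (0.37), regeneration or rgn (-0.38) and the TFIID subunit gene Taf4 (-0.41) were also called with the opposite sign in 2 other pairs, but Pyroxd1 and Taf4 are not among the 36 genes, and a second Taf4 probe set gave -0.17 and was not called. Calls in B1 minus B2 were lost for Pyroxd1 with arrays centred (0.36, adjusted p = 0.0918) or without B2 replicate 2 (0.33, adjusted p = 0.0712), for rgn with arrays centred (-0.39, adjusted p = 0.0696) or without B1 replicate 1 (-0.32, adjusted p = 0.0968), B1 replicate 2 (-0.32, adjusted p = 0.0918) or B2 replicate 2 (-0.35, adjusted p = 0.0642), and for Taf4 without B1 replicate 1 (-0.33, adjusted p = 0.0792), B1 replicate 2 (-0.34, adjusted p = 0.0685) or B2 replicate 1 (-0.32, adjusted p = 0.0778).

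**Figure D3:**
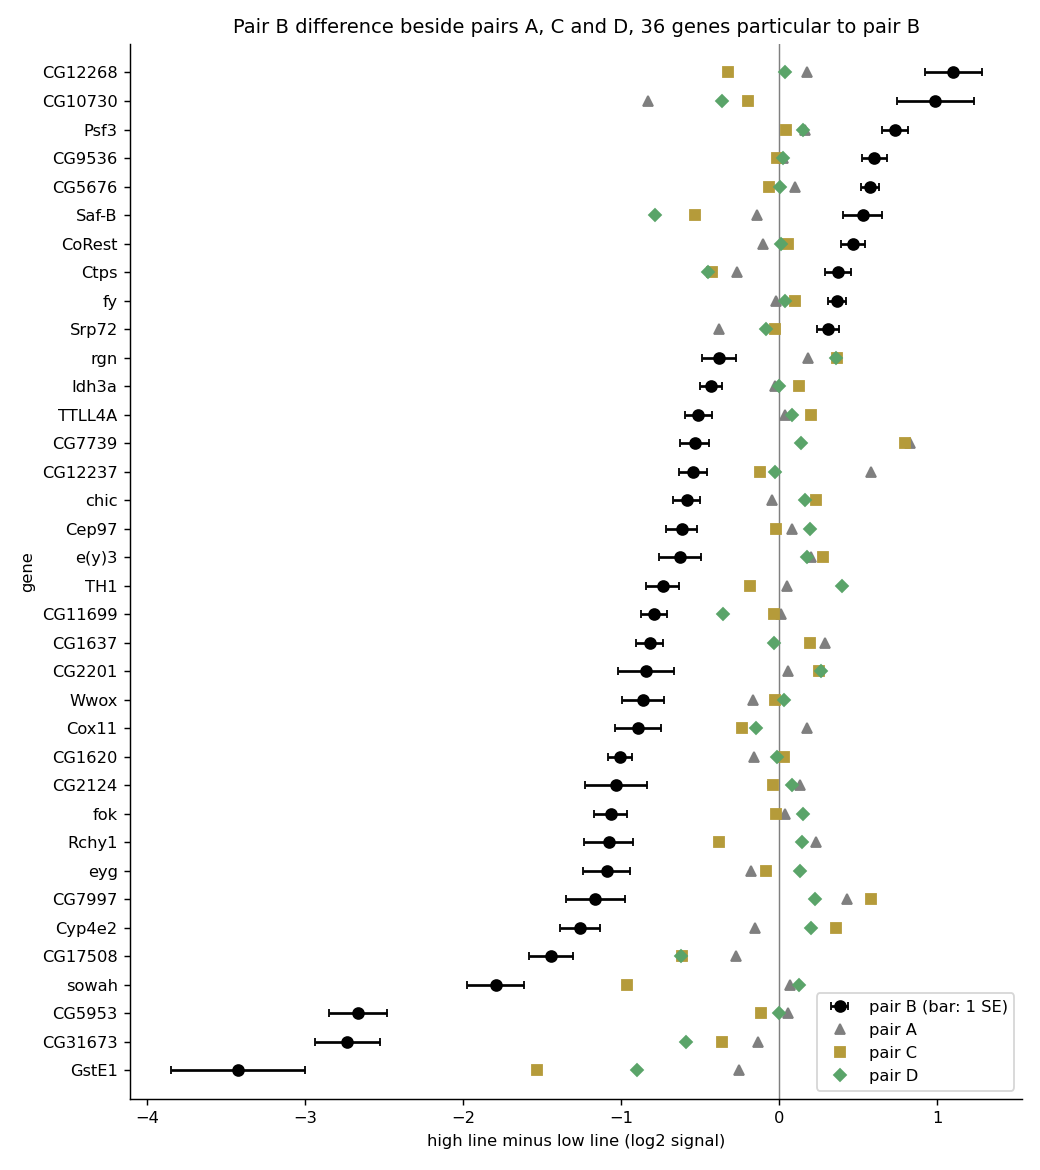
Difference between high and low line (log2 signal) of the 36 pair B genes, in pair B as black circles with 1 SE and in pairs A, C and D as triangles, squares and diamonds. The black circles run between -3.42 for GstE1 and 1.10 for CG12268, and most of the other points lie near 0.

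The position of B1 and B2 against the founders was also described. B1 was outside both founders, with B1 minus H and B1 minus L called in the same direction, for 27 of the 56 pair B probe sets (23 below, 4 above), or 48.2%, against 4.67% of all tested probe sets and 14.8% of those called in B1 minus B2. B2 was outside both founders for 13 (9 above, 4 below), or 23.2%, against 4.45% and 12.6%. The founders themselves, called at 22.4% of tested probe sets, had a called difference in the pair B direction for 21 of the 56 (37.5%), in the opposite direction for 12, and none for 23. Over all 1189 probe sets called in B1 minus B2, these were 665 (55.9%), 46 and 478. Among the 188 probe sets called alike in all 4 reselected pairs, 175 had the founder direction (93.1%). The rule uses the B1 and B2 arrays that these counts use, and the founder arrays have title numbers in a separate run from the reselected lines, so these shares are descriptions.

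Of the 36 genes, 14 lie on chromosome arm 2L (38.9%, against 17.9% of tested genes and 22.9% of genes called in B1 minus B2). B1 alone was called apart for 12 of them. The X holds 9 (25%, against 16.8% and 13.3%), among them 4 of the 5 genes in which B2 alone was called apart. Arms 2R, 3L and 3R hold 5, 5 and 3 (13.9%, 13.9% and 8.33%). Their shares were 19.9%, 20% and 24.5% of tested genes and 19.9%, 25.6% and 17.9% of called genes. In the gene order of assembly Release 6 plus ISO1 MT, Idh3a and CoRest are adjacent on the X, 1 protein-coding gene separates e(y)3 and CG12237, and 2 separate each of the 2L neighbours Rchy1 and CG9536, and CG10730 and fok. No run of 3 or more adjacent pair B genes was found.

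Among probe sets with 1 gene symbol, the biggest differences of pair B were mostly not its own. Some pair B probe sets without exactly 1 symbol also had large differences, of 4.09, -3.905 and -3.86. The first of these met the rule in 2 of the 6 fits without a pair B array. CG12129 read 106.6, 25.8 and 183.7 in B1 and 4486, 4159 and 4641 in B2 (-5.80 ± 0.67), but C and D had -4.41 and -5.09. CG8539 (-4.36), Ptr (-3.69) and CG15822 (-3.56) were called lower in all of A, C and D too, and CG10809 (-4.39) in A and D. CG12129, CG8539, Ptr and CG15822 were under the filter signal of 259.72 on all B1 arrays. Among genes higher in B1, CG32017 (2.81) and Ir76a (2.78) were called higher in every other pair, sut2 (2.62) in C and D, Spn47C (2.68) in C and D, and sepia or se (2.68), an omega glutathione transferase of eye pigment synthesis, in A. Spn47C was no longer called without B2 replicate 2 (1.79, adjusted p = 0.0595). CG10132, which is not a pair B gene, had 2354, 1084 and 2310 in B1 and 237.9, 335.1 and 369.0 in B2 (2.55 ± 0.56), and differences of 0.66, 0.38 and 0.16 elsewhere. Its B difference minus the mean of the others was 2.15 and missed the threshold (adjusted p = 0.0539).

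Gene lists were described by counts, with 1 probe set a gene. Over all 7222 genes tested, 12.9% were called in B1 minus B2, 6.55% higher and 6.31% lower, and the median difference was 0.00. The lists were chosen with earlier results of these data known. Several patterning lists held no called gene. None of 20 Dpp and BMP genes, of 11 wing pouch and hinge genes or of 11 Enhancer of split and Bearded genes was called, and their medians were 0.05, -0.12 and -0.08. Pairs A, C and D had 2, 7 and 1 called in the first list, 0, 1 and 0 in the second and 4, 4 and 1 in the third. In pair B minus the mean of the others, 1 Enhancer of split or Bearded gene was called, and 0 in the other lists. A miss does not show equal levels, since Med, the co-Smad of the Dpp pathway, had a difference of -1.18 ± 0.46 with overlapping arrays (adjusted p = 0.1), and nab, a pouch gene, one of -0.63 ± 0.25 (adjusted p = 0.111). With quantile normalisation 1 Enhancer of split or Bearded gene was called lower. Of 13 notum and body wall genes, only eyg was called.

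Of 14 Hedgehog genes (median -0.02), 1 was higher and 2 lower in B1. Patched (ptc), receptor and target of Hedgehog, read 1296, 1212 and 1161 in B1 and 1788, 1756 and 1504 in B2 (difference -0.46 ± 0.12, adjusted p = 0.00683), without overlap. Costal-2 (cos), a kinesin-like inhibitor of the pathway, had 10110, 10010 and 9257 in B1 and 10760, 11490 and 11230 in B2 (-0.19, adjusted p = 0.021), which was not called without B1 replicate 3 (-0.15, adjusted p = 0.105), B2 replicate 2 (-0.17, adjusted p = 0.0986) or B2 replicate 3 (-0.18, adjusted p = 0.061), or with arrays centred (-0.20, adjusted p = 0.346). Engrailed (en), the selector of posterior cells, averaged 13520 in B1 and 10900 in B2 (0.30), with overlapping arrays, and was not called without B1 replicate 1 (0.21, adjusted p = 0.0897) or with arrays centred (0.29, adjusted p = 0.159). For ptc, A, C and D had -0.09, -0.06 and 0.08, and pair B minus their mean missed the threshold (-0.43, adjusted p = 0.0629). Among 13 EGFR genes (median -0.05), kek1, a transmembrane inhibitor of the receptor, rose by 0.64 in B1 and aop, the ETS repressor Yan, fell by 0.38, a call lost without B1 replicate 1 (-0.29, adjusted p = 0.098) or with arrays centred (-0.39, adjusted p = 0.0792). The kek1 values were 5379, 4839 and 5123 in B1 and 3639, 3098 and 3117 in B2. Pair B minus the mean of the others was 0.78 for kek1 (adjusted p = 0.0059), which was lost without pair C (0.55, adjusted p = 0.111), where kek1 had -0.59.

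**Figure D4:**
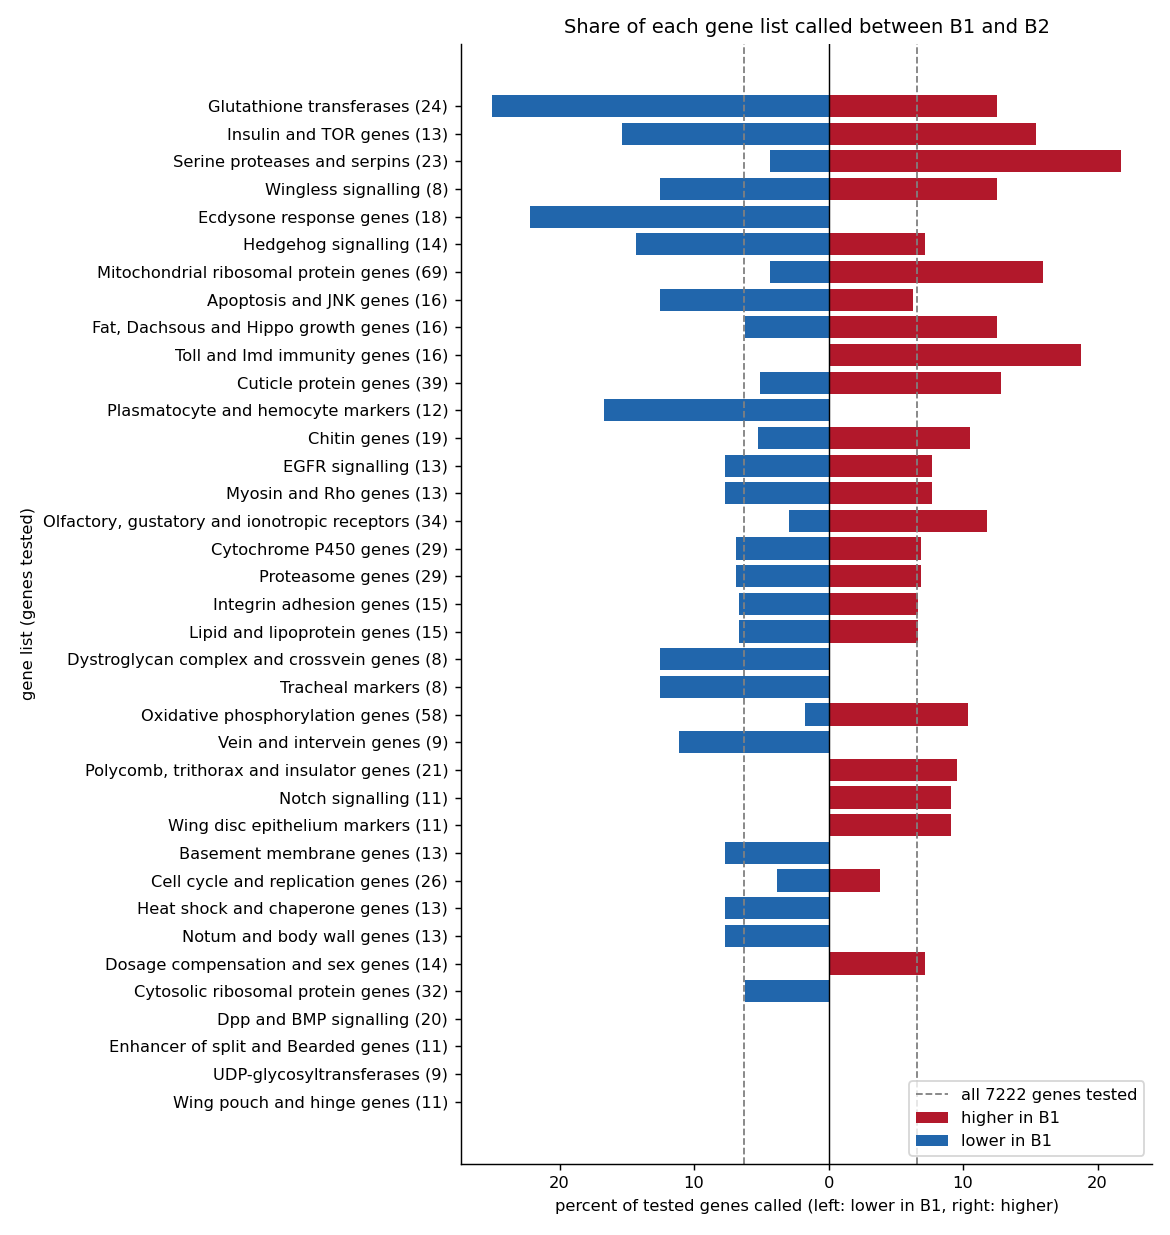
Percent of tested genes called lower (blue, left) and higher (red, right) in B1 than in B2 for each list with at least 8 tested genes, numbers tested in brackets, and the shares over all 7222 genes as dashed lines. Of the glutathione transferases 9 of 24 were called (7 of 24 under either other scaling), and no Dpp, pouch and hinge, Enhancer of split or UDP-glycosyltransferase gene was called.

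Growth and Wingless lists held calls that other pairs mostly had as well. Of 16 Fat, Dachsous and Hippo genes (18.8% called, median -0.05), 2 were higher and 1 lower in B1. Dachsous (ds), the atypical cadherin that binds Fat, read 24510, 21840 and 23380 in B1 and 19230, 19070 and 18570 in B2 (difference 0.29 ± 0.07, adjusted p = 0.00239), and A, C and D had called differences of 0.20, 0.45 and 0.41. With arrays centred the ds call was lost (0.28, adjusted p = 0.181). Four-jointed (fj), the Golgi kinase that modifies both cadherins, rose by 0.49 (adjusted p = 0.0089), a call lost without B1 replicate 1 (0.42, adjusted p = 0.0693), B2 replicate 2 (0.44, adjusted p = 0.0528) or B2 replicate 3 (0.40, adjusted p = 0.0715). Kibra, an upstream activator of the Hippo kinase cascade, read 1124, 1430 and 1702 in B1 and 2504, 2194 and 2609 in B2, a difference of -0.80 ± 0.17 without overlap. Of 8 Wingless genes, naked cuticle (nkd), a feedback inhibitor, was lower (-0.46) and wntless (wls), needed for Wnt secretion, higher (0.38) in B1, and pairs A and D had called differences of the same sign for both. None of these 5 genes was called in pair B minus the mean of the others, where values lay between -0.43 for kibra and 0.14 for fj.

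Of 18 ecdysone response genes tested, 4 were lower and none higher in B1 (22.2%, median -0.05), and 4 stayed lower with quantile normalisation but 3 with arrays centred. In either direction, 4, 5 and 5 of the 18 were called in pairs A, C and D. Hr3, a nuclear receptor gene induced by ecdysone, read 257.6, 269.3 and 898.1 in B1 and 3193, 2057 and 2926 in B2, a difference of -2.76 ± 0.40 (adjusted p = 7.64e-06). All B1 arrays were below all B2 arrays, and pair D had a called -1.90. The ecdysone receptor gene EcR read 1386, 1092 and 1354 in B1 and 3291, 1804 and 2071 in B2 (-0.86 ± 0.21, adjusted p = 0.00422). Here the other pairs differed in sign (0.72 in A, 0.19 in C, -0.17 in D), pair B minus their mean was -1.11 (adjusted p = 0.00437), and the 3 other high lines averaged between 2996 and 3925. Without B2 replicate 1 the EcR difference was -0.61 and was not called (adjusted p = 0.0662).

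ImpL2, an ecdysone-inducible gene whose secreted product binds insulin-like peptides, read 4865, 4309 and 7932 in B1 and 12150, 12470 and 14630 in B2 (-1.25 ± 0.17, adjusted p = 3.94e-06), and pairs A and D fell too, by 0.88 and 0.72. The probe sets of ImpE1 disagreed, at -0.61, 1.11 and 0.46, so its place among the 4 depends on the probe set taken. The values of ImpE1 (12450, 13830 and 26600 in B1, 28290, 22310 and 26030 in B2) overlapped on the brightest probe set, and the call was lost without B1 replicate 1 (-0.41, adjusted p = 0.299), B1 replicate 2 (-0.48, adjusted p = 0.208), B2 replicate 1 (-0.54, adjusted p = 0.144) or B2 replicate 3 (-0.60, adjusted p = 0.0979) or with arrays centred (-0.62, adjusted p = 0.0549). The third B1 array was the highest of its line for Hr3, ImpL2 and ImpE1. Hr3 and ImpL2 missed the threshold in pair B minus the mean of the others (-1.52, adjusted p = 0.0562, and -0.67, adjusted p = 0.0515), and passed it without B1 replicate 3 (-2.11, adjusted p = 0.00237, for Hr3 and -0.94, adjusted p = 0.00159, for ImpL2). The receptor partner usp (-0.01) and br, an early ecdysone target (-0.16 on its brightest probe set), were not called.

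**Figure D5:**
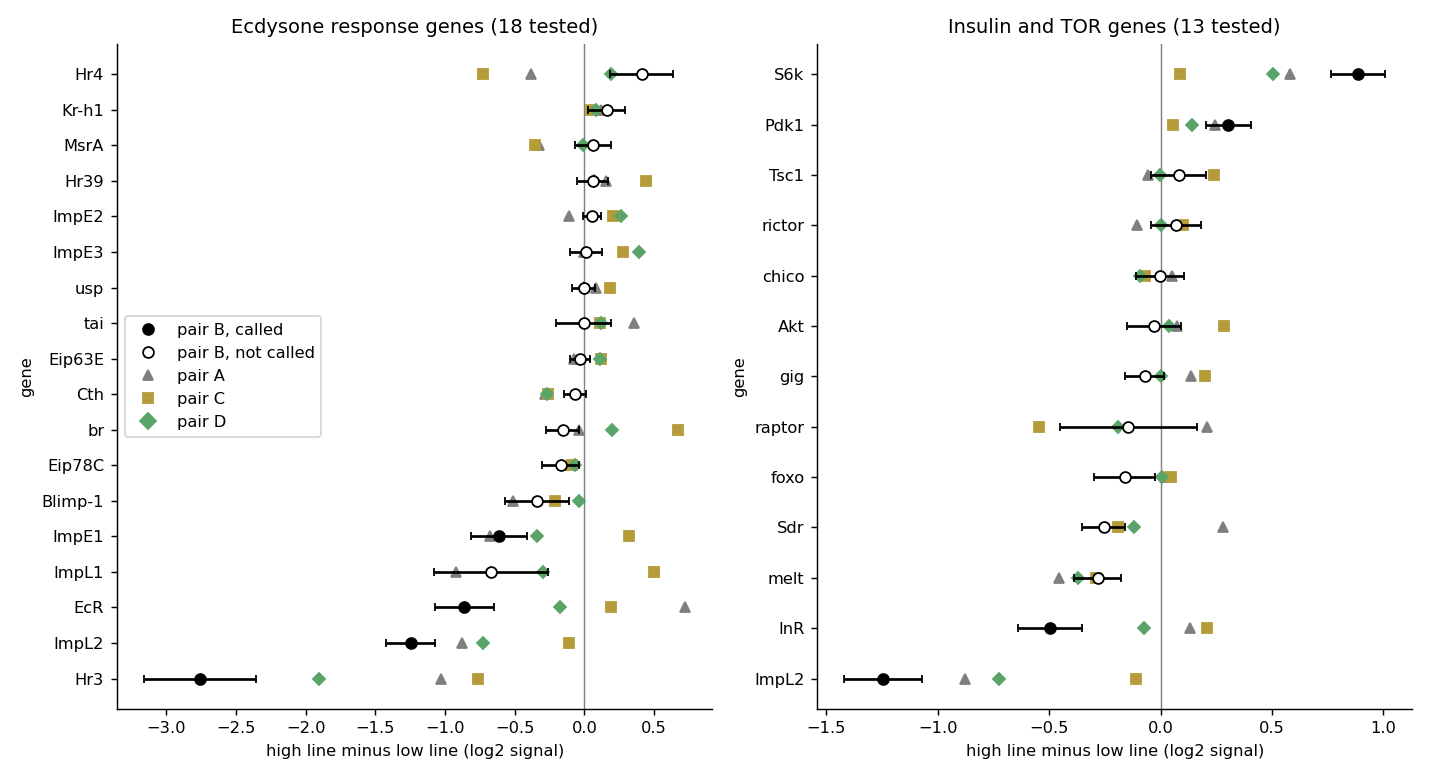
Difference between high and low line (log2 signal) of each tested ecdysone response gene (left) and insulin and TOR gene (right), for pair B as circles with 1 SE, filled where called, and for pairs A, C and D as triangles, squares and diamonds. Hr3 and ImpL2 are lowest in pair B, S6k is highest, and EcR and InR lie to the left of the other 3 pairs.

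Of 13 insulin and TOR genes (median -0.07), 2 were higher and 2 lower in B1, ImpL2 being in both lists. S6k, the ribosomal protein S6 kinase gene of the TOR pathway, read 7026, 6037 and 5675 in B1 and 3910, 3084 and 3165 in B2 (0.89 ± 0.12, adjusted p = 2.97e-06). It was also called higher in A (0.58) and D (0.51), and pair B minus the mean of the others was 0.50 (adjusted p = 0.0386), which was lost with arrays centred (0.49, adjusted p = 0.187) or without pair C (0.34, adjusted p = 0.279), B1 replicate 1 (0.41, adjusted p = 0.183), B1 replicate 2 (0.52, adjusted p = 0.0775), B2 replicate 2 (0.43, adjusted p = 0.142) or B2 replicate 3 (0.45, adjusted p = 0.102). Pdk1, an upstream kinase, rose by 0.30 (adjusted p = 0.0394), a call lost without B1 replicate 1 (0.29, adjusted p = 0.127), B1 replicate 3 (0.28, adjusted p = 0.0985), B2 replicate 2 (0.23, adjusted p = 0.22) or B2 replicate 3 (0.31, adjusted p = 0.083) or with arrays centred (0.30, adjusted p = 0.256). The insulin receptor gene InR read 4845, 5369 and 4666 in B1 and 9082, 6368 and 5887 in B2 (-0.50 ± 0.14, adjusted p = 0.0157), with 0.13, 0.21 and -0.07 in A, C and D. The InR call was lost without B1 replicate 1 (-0.48, adjusted p = 0.0579), B1 replicate 3 (-0.45, adjusted p = 0.0531) or B2 replicate 1 (-0.31, adjusted p = 0.191). Pair B minus the mean of the others was -0.59 for InR, a call lost in 9 of 35 alternatives, among them without B2 replicate 1 (-0.40, adjusted p = 0.213). Akt (-0.03), chico (-0.00) and foxo (-0.16) were not called.

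Of 24 glutathione transferases, 3 were higher and 6 lower in B1 (37.5%, median -0.08), the 6 becoming 4 under either other scaling. Pairs A, C and D had 7, 11 and 10 of the 24 called, with medians of -0.145, -0.289 and -0.173, so the share was not particular to pair B. GstO3 (-1.63) was lower in every pair. GstE11, by contrast, varied between pairs, with 35200, 34650 and 31530 in B1 and 17970, 15350 and 2699 in B2. It rose by 1.90 in B1, against -0.16 in A, 4.05 in C and 4.37 in D. The third B2 array was far below the others of its line and near the low lines A2, C2 and D2 (1524 to 2656). Without that array pair B minus the mean of the others was -1.73 and was called (adjusted p = 1.41e-09), against -0.86 with it (adjusted p = 0.264). Of 29 cytochrome P450 genes, 2 were higher and 2 lower (13.8%), and Cyp4e2 alone among them was a pair B gene.

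Among 23 serine proteases and serpins, 5 were higher and 1 lower in B1 (26.1%, median 0.09). Spn42De, a serine protease inhibitor, rose by 1.19 and grass, a protease of the Toll pathway, by 1.00, with pair B minus the others at 0.84 and 1.14. The call against the others was lost for grass without B1 replicate 1 (1.14, adjusted p = 0.0628), B1 replicate 2 (1.04, adjusted p = 0.104), B2 replicate 1 (1.13, adjusted p = 0.0588) or B2 replicate 2 (1.10, adjusted p = 0.0736). For Spn42De it was lost without B1 replicate 1 (0.82, adjusted p = 0.0861), B1 replicate 2 (0.73, adjusted p = 0.141), B2 replicate 1 (0.77, adjusted p = 0.0957) or B2 replicate 3 (0.64, adjusted p = 0.137), and with arrays centred (0.83, adjusted p = 0.0779). Of 69 mitochondrial ribosomal protein genes, 11 were higher and 3 lower (20.3%, median -0.02), and with arrays centred 2 and 0. Of 58 oxidative phosphorylation genes, 6 were higher and 1 lower (12.1%, median 0.04), and with arrays centred 1 and 0. The complex I gene ND-SGDH read 19050, 22940 and 20610 in B1 and 14660, 15690 and 15100 in B2, a difference of 0.46 ± 0.08 (adjusted p = 6.47e-05), against 0.02, -0.16 and 0.16 in A, C and D. Of 26 cell cycle and replication genes, the spindle checkpoint kinase gene Bub1 was lower (-0.71) and Mis12, of the kinetochore, higher (1.10) in B1. Bub1 read 2909, 3362 and 3664 in B1 and 5404, 5236 and 5509 in B2, without overlap, and its differences elsewhere were -0.07, -0.13 and -0.25. Mis12 was called in the same direction in all of A, C and D.

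Of 12 hemocyte genes, 2 were lower and none higher in B1 (median -0.42). Pairs A, C and D had medians of -0.27, -0.79 and -0.75 for these 12, with 4, 7 and 5 called. The scavenger receptor gene crq read 601.3, 726.0 and 912.9 in B1 and 2323, 2438 and 1799 in B2 (-1.56 ± 0.17, adjusted p = 1.87e-08), and its differences in A, C and D were -1.22, -0.88 and -1.51, all called. Eater, a phagocytosis receptor gene, averaged 130.3 in B1, under the filter signal of 259.72. Its call was lost without B1 replicate 2 (-1.57, adjusted p = 0.0957), B1 replicate 3 (-1.57, adjusted p = 0.0693) or B2 replicate 3 (-1.81, adjusted p = 0.0536).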

How the data were processed

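RNA of wing discs was hybridised to Affymetrix arrays, 1 sample an array. The deposited table holds intensity values, 1 per probe set and array, made with MAS5 per the submitters' processing notes, with its version not given in the sources used here. The values show that the authors scaled each array to 1 trimmed mean, 2500.1 on all 36, and deposited them without logarithm or detection calls. Lines come from the sample titles, and no sample column was left unused (0).

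Of 18952 probe sets, 183 controls were left out. Signals, none of which was 0, were taken to log2, and the 9385 probe sets with a mean over all 36 arrays at or above the median (signal 259.72) were tested with limma 3.58.1 (R 4.3.3). The model had a mean for each line, an intensity trend, 24 residual and 6.34 prior degrees of freedom, and Benjamini-Hochberg adjustment over all tested probe sets. The difference between pairs leaves out the spread between populations, with 1 pair of lines from each. The number of arrays limits the precision.

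Symbols came from the platform annotation, compared with a gene table of Release 6 plus ISO1 MT: 7867 tested probe sets had 1 symbol (7839 found in the table), 235 several and 1283 none. Genes with no probe set of 1 symbol are unnamed here. The rule for named genes takes pair B genes with no overlap of B1 and B2 arrays, the 12 highest and 12 lowest in pair B minus the mean of A, C and D, then the 6 most changed each way in B1 minus B2, up to 6 of opposite sign elsewhere and up to 4 called a list, with their other probe sets. Members and lists were chosen with earlier results of these data known. Alternatives were other scalings, a pseudocount, other filters, no trend, fewer arrays, a replicate block, other thresholds, fewer pairs and leaving out arrays.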

Additional observations from a re-analysis of the deposited data

Results flagged for a closer look

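A test of the difference between pair B and the other pairs picked out the following, with no explanation weighed. The 56 pair B probe sets and the 406 probe sets called in pair B minus the mean of pairs A, C and D are described above. The values below are pair B minus that mean, in log2 units. They cover the probe sets taken by the naming rule and called both in B1 minus B2 and in this contrast. Left out are further probe sets of a named gene and the genes picked out after their values were seen. A second CoRest probe set so left out was called below the other pairs, opposite to the CoRest value listed. Its values lay between -0.54 and -0.39 with single arrays left out.

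Pair B was above the other pairs with values of CG10730 1.452, grass 1.141, CG12268 1.139, Saf-B 1.015, Spn42De 0.8353, kek1 0.7779, Ctps 0.7532 and grnd 0.6423. Next came Psf3 0.6141, Pyroxd1 0.6036, CG9536 0.5914, Obp56a 0.5663, CG5676 0.5651, S6k 0.4953, CoRest 0.4793 and Srp72 0.4728. The other values were ND-SGDH 0.4519 and fy 0.3277.

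Pair B was below the other pairs with values of Idh3a -0.4636, Bub1 -0.5578, InR -0.5863, TTLL4A -0.6179, CG11699 -0.6666, rgn -0.6835, chic -0.7043 and Taf4 -0.713. Next came CG2201 -1.036, eyg -1.049, Rchy1 -1.075, CG2124 -1.087, EcR -1.108, fok -1.122, CG7739 -1.122 and Cyp4e2 -1.396. The other values were sowah -1.536, CG7997 -1.576, CG10809 -2.356, CG31673 -2.371, GstE1 -2.529, CG5953 -2.647 and CG12129 -2.72.

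For grnd, a TNF receptor gene, the positive value marks a smaller fall in pair B (-0.51) than in A (-1.01), C (-1.19) and D (-1.25). For Obp56a, an odorant-binding protein gene, pair C had the opposite sign (-0.40 against 0.94 in pair B). CG12129 and CG10809 were set apart by 1 other pair, since the A difference of CG12129 was 0.28 and the C difference of CG10809 was 0.20.

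Of these 41 values, 28 were called under each alternative that was run for them, and 13 were lost under at least 1. The adjusted p below 0.01 and the 2-fold threshold were not among these alternatives. With arrays centred on their medians, and under no other of these alternatives, 5 calls were lost. They were those of CoRest (0.47, adjusted p = 0.103), Srp72 (0.46, adjusted p = 0.0605), ND-SGDH (0.44, adjusted p = 0.0824), fy (0.32, adjusted p = 0.189) and Idh3a (-0.47, adjusted p = 0.0509). S6k lost its call in 17 of 35 alternatives, CG12129 in 14 of 34, InR in 9 of 35, Spn42De in 8 of 34, grass in 7 of 34, Obp56a in 6 of 35, CG10809 in 3 of 34 and kek1 in 1 of 35. CG12129 was not called without pair A (-1.04, adjusted p = 0.58), B1 replicate 1 (-2.93, adjusted p = 0.0573), B1 replicate 2 (-1.91, adjusted p = 0.239) or any 1 of the B2 arrays (adjusted p between 0.0736 and 0.083), nor with the 24 reselected arrays alone (adjusted p = 0.123). CG10809 was not called without pair C (-1.24, adjusted p = 0.355) or B1 replicate 1 (-2.13, adjusted p = 0.055). Obp56a was 0.18 without pair C (adjusted p = 0.738), and it was also not called without B1 replicate 1 (0.58, adjusted p = 0.0706), B1 replicate 2 (0.47, adjusted p = 0.171) or B2 replicate 3 (0.45, adjusted p = 0.133). InR was also not called without B1 replicate 1 (-0.57, adjusted p = 0.0942) or B1 replicate 3 (-0.54, adjusted p = 0.0625). Single arrays of other pairs ended the call of CG12129 (A1 replicate 2, D1 replicate 3, D2 replicate 2 or D2 replicate 3, adjusted p at most 0.0538) and of S6k (A1 replicate 3, A2 replicate 1, C1 replicate 2, C2 replicate 2, C2 replicate 3, D1 replicate 2, D2 replicate 1 or D2 replicate 2, adjusted p at most 0.0586). Values without 1 pair were grass 0.89 without pair A (adjusted p = 0.114) and kek1 0.55 without pair C (adjusted p = 0.111).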

How the results depend on the processing

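Of the named values, none of the 160 called changed sign under any alternative that was run, while 24 of the 90 not called did. Centring each array on its median gave 713 called probe sets for B1 minus B2, 219 for pair B minus the mean of the others, 32 pair B probe sets, 380 for B1 minus the other high lines and 260 for B2 minus the other low lines, in place of 1189, 406, 56, 646 and 579. In B2 minus the other low lines the majority then turned, with 109 higher and 151 lower in place of 316 and 263. At an adjusted p below 0.01 these were 767, 206, 30, 357 and 206, and at 2-fold or more 257, 109, 16, 91 and 61. B2 minus the other low lines gave 385 with no filter, and B1 minus B2 gave 770 with the filter at the 75th percentile and 711 from the 6 pair B arrays alone. The pair B probe sets numbered 90 without pair A and 109 without pair D among the pairs compared. Leaving out 1 array at a time gave 859 (without B1 replicate 1) to 1400 (without B1 replicate 3) for B1 minus B2, 262 to 684 for pair B minus the others, 36 to 92 pair B probe sets, 374 (without B1 replicate 2) to 745 for B1 against the other high lines and 223 (without B2 replicate 2) to 671 for B2 against the other low lines. Quantile normalization, a pseudocount, no intensity trend and the 24 arrays of the reselected lines kept each count within 1.5 times. Same-numbered arrays of a pair correlated at -0.064 to 0.188 in their deviations, so the numbers were not taken to pair samples, and with the replicate block the counts were 1186, 403, 55, 643 and 525. Why counts moved was not tested. Signal over background could not be judged, since no detection calls were used.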
